A study of Homo sapiens with 4 samples.

Results

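The RNA levels of 36 genes that decide whether a cell enters apoptosis were compared between imatinib-sensitive and imatinib-resistant leukaemia cells. The genes are the BCL2 family, the caspases, the inhibitors of apoptosis and the proteins that link them, and they were taken by symbol from the deposited table of 32673 genes, in which all 36 were listed. TF1 is a human erythroleukaemia cell line that grows in GM-CSF. TF1-BA cells are TF1 cells that carry BCR-ABL, the fusion kinase of chronic myeloid leukaemia, and they respond to imatinib, an inhibitor of that kinase. TF1-BAR cells carry the same fusion and are labelled imatinib resistant, with titles that read VECTOR, and 2 uM imatinib was added to their culture. The labels do not say whether the drug was still present when the RNA was taken. By the labels both lines were grown with 2 ng/ml GM-CSF, while the study's methods give a higher concentration, and each was sequenced in 2 libraries of 10000000 cells, so resistance, the drug in the medium and the vector of the title cannot be told apart here. Each line stands for a single derived cell line, and no label says that its 2 libraries came from separate cultures, so p-values measure only the spread between these libraries.

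The 4 libraries held 15465497 to 18042299 fragments, recovered from the deposited values as described with the processing. Levels are given in FPKM, fragments scaled to transcript length and library size, which can be compared between genes. Differences are given as log2 fold changes of FPKM + 0.5, TF1-BAR over TF1-BA, which understate the change of genes with low FPKM. Replicate libraries correlated with r = 0.983 in TF1-BA and 0.979 in TF1-BAR across genes, and libraries of different lines with 0.946 to 0.956. All 7 markers of TF1 (CD34, CD33, KIT, CSF2RA, CSF2RB, GATA1 and EPOR) were at 6.64 FPKM or more in every library. Their levels differed between the lines, with log2 fold changes of 1.17 for CD34, 1.12 for KIT and 0.87 for CD33. CSF2RB and EPOR had smaller ones of 0.27 and 0.28, and CSF2RA and GATA1 had −0.19 and −0.14. Of the T cell, monocyte and stromal markers, CD3E, CD3G, CD2, CD14, FCGR3A, COL3A1 and DCN were at or near 0 and COL1A1 at 0.213 to 0.429 FPKM, while LYZ lay at 13.6 to 16.5 FPKM and CD3D fell from 19.2 and 20.7 to 5.74 and 6.36 FPKM. The B cell gene CD79A lay at 1.84 to 3.55 FPKM, and the part of these genes in the results was not tested.

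In the mitochondrial pathway of apoptosis, BAX and BAK1 open pores in the outer membrane of mitochondria, and cytochrome c leaves through them. The anti-apoptotic members of the BCL2 family, among them BCL2, BCL-xL (BCL2L1) and MCL1, hold BAX and BAK1 back, and the BH3-only proteins such as BIM (BCL2L11) release them. Cytochrome c then joins APAF1 and caspase-9 in the apoptosome, which activates the executioner caspases unless inhibitors of apoptosis such as XIAP block them. A second route starts at death receptors, which recruit FADD and caspase-8 and are checked by CFLAR. In BCR-ABL-positive cells the kinase keeps BIM low and BCL-xL and MCL1 high, and imatinib reverses this.

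BCL2 was the gene of this set that the study also measured by qRT-PCR, so its primers show which stretch of the transcript that assay read. Both lie in the coding part of exon 2 of 3 of the MANE Select transcript, on the minus strand of chromosome 18, and enclose 89 bases at chr18:63318119-63318207 of GRCh38. The forward primer lies at chr18:63318189-63318207 and the reverse primer, which reads the opposite strand, at chr18:63318119-63318140.
BCL2-F: ggtggggtcatgtgtgtgg
BCL2-R: cggttcaggtactcagtcatcc

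The table of RefSeq promoters (build GRCh38.p14) held entries for 28 of the 36 genes, in 51 windows, and named none for BCL2L10, BCL2L2, BIK, CASP1, CASP10, MCL1, TNFRSF10A and TNFRSF10B. The windows of the 2 genes with the largest change in each direction among those that passed the test are shown, both from the minus strand of chromosome 15. For BCL2A1 these are the 250 bases before the RefSeq start, chr15:79971197-79971446, which lie inside the gene as the deposited table places it (chr15:79960889-79971446), and for BMF, which has 2 entries, 150 bases that end shortly before the start of the first, chr15:40108893-40109042. Capitals mark matches to the motifs searched on both strands, which were TTCNNNGAA and TATAAA in BCL2A1 and CCAAT, read here as its complement, in BMF.
BCL2A1: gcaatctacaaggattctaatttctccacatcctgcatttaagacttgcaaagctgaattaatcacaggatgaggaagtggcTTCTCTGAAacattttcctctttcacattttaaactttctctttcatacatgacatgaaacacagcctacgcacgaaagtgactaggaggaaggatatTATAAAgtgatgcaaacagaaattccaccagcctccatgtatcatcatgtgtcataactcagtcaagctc
BMF: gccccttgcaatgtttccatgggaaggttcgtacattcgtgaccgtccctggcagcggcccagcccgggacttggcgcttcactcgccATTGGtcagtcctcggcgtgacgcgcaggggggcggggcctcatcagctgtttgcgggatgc

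TTCNNNGAA, the core of a STAT site, was found in the 250 upstream bases of BCL2A1 and CASP8, or 3.92% of the windows of these genes, and in 6.57% of all 35116 promoter windows. TATAAA stood in BCL2A1, BCL2L1 and CASP8 (5.88% of windows against 10.7% of all), and CCAAT in 14 of the genes (31.4% against 32.0%). TGTTTAC, a FOXO motif, was found in BCL2L11 alone among them (1.96% against 2.98%), and CACGTG in BAX, BBC3 and BID (7.84% against 6.34%). The motif matches describe the letters of these windows and no factor was measured at them.

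Of the 36 genes, 30 had a mean of at least 0.5 FPKM over the 4 libraries and were tested. An adjusted p under 0.05 (limma, two-sided, adjusted over all 15519 genes tested) was reached by 8 of the 30, or 26.7%, against 26.9% of all genes. Higher in TF1-BAR were BMF, CASP4, BCL2L2, CASP2 and CFLAR, which is 5 of 30 where 16.3% of all genes were higher. BMF is counted here although it reached the filter only through TF1-BAR, with a mean of 0.377 FPKM in TF1-BA. Lower were BCL2A1, MCL1 and CASP6, 3 of 30 where 10.5% of all genes were lower. BCL2A1 alone also passed the 2-fold threshold on the scale of FPKM + 0.5, 1 of 30 where 4.75% of all genes passed both thresholds and 1.69% did so with lower levels. The 2 groups of libraries did not overlap for 22 of the 30 genes, against 69.3% of all genes. The median log2 fold change of the 30 was 0.053 and that of all genes tested 0.066, so neither the number of genes that passed nor their median set these genes apart from the rest of the transcriptome.

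The calls rested on few libraries. With limma and either TF1-BA library left out, 0 of the 30 genes had an adjusted p under 0.05, where 10 had an unadjusted p under 0.05, and without TF1-BAR replicate 2 only MCL1 did. Without TF1-BAR replicate 1 there were 7, with BAK1 and CYCS among them and BMF, CASP6 and CFLAR not. The log2 fold changes of the 8 genes kept their sign in each of the 15 alternative settings, except that BMF was under the stricter filter and so has no value in 1 of them.

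**Figure D1:**
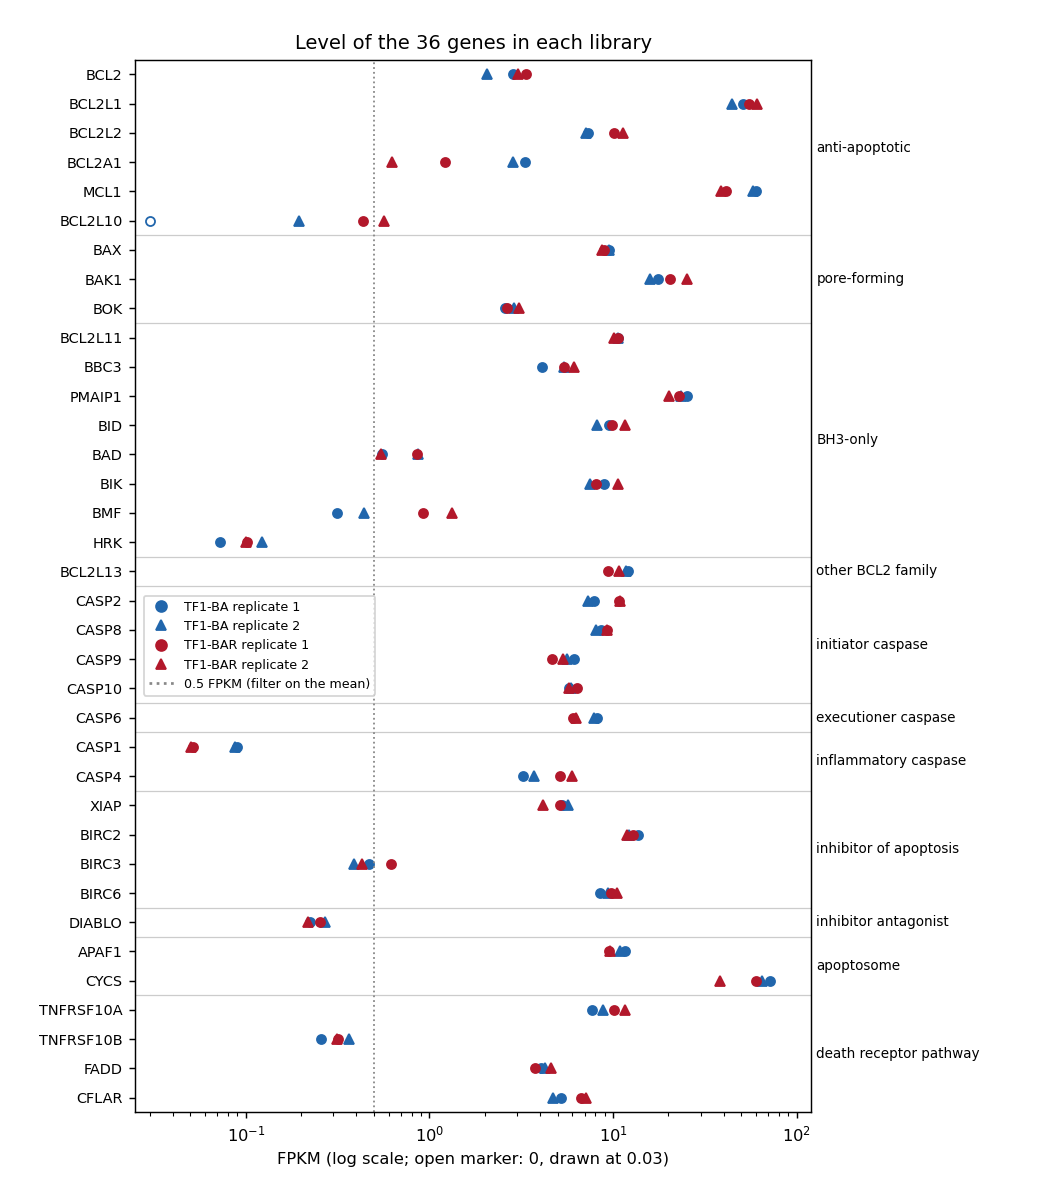
FPKM of the 36 genes (log scale, rows grouped by role) in each library, with TF1-BA in blue and TF1-BAR in red and circles and triangles for replicates 1 and 2. BCL2L1, MCL1 and CYCS lie highest, the 6 genes whose mean is left of the dotted line at 0.5 FPKM were not tested, and BCL2A1, MCL1, BMF and CASP4 show the 2 lines apart.

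The anti-apoptotic members moved in different directions. MCL1, a short-lived guard of BAK1 that many blood cells need to survive, was at 60.4 and 57.6 FPKM in the TF1-BA libraries and at 41.2 and 38.6 FPKM in the TF1-BAR libraries. Both resistant libraries were lower than both sensitive ones, and the means were 59.0 ± 1.96 (SD, n = 2) and 39.9 ± 1.88 FPKM (n = 2). The log2 fold change was −0.56 (standard error 0.0670, limma adjusted p = 0.0090), on 4763 and 3895 against 2841 and 2711 fragments, and it passed in 13 of 15 alternatives with adjusted p from 0.00011 to 0.0883. BCL2A1, an inducible relative also called BFL1, was at 3.31 and 2.85 FPKM in TF1-BA and at 1.22 and 0.628 FPKM in TF1-BAR. It was lower in both resistant libraries, which differed by almost 2-fold from each other, on 65 and 48 against 21 and 11 fragments. Its log2 fold change of −1.36 (standard error 0.231, limma adjusted p = 0.0182) was the largest of the 30, and it passed in 11 of 15 alternatives with adjusted p from 0.00164 to 0.111.

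BCL2L2, which encodes BCL-w, was at 7.26 and 7.12 FPKM in TF1-BA and at 10.2 and 11.4 FPKM in TF1-BAR. Both resistant libraries were higher, with a log2 fold change of 0.55 (standard error 0.0861, limma adjusted p = 0.0149, 0.00071 to 0.115 over the alternatives). In GENCODE 44 it shares 815 exon bases with the readthrough gene BCL2L2-PABPN1 on the same strand, so the split of reads between them is uncertain. BCL2L1, which encodes BCL-xL, was at 50.9 and 44.4 FPKM in TF1-BA and at 54.9 and 60.8 FPKM in TF1-BAR. The lines did not overlap, but the log2 fold change of 0.28 (standard error 0.0951) did not pass the test (limma adjusted p = 0.0890, 0.0259 to 0.378 over the alternatives, of which limma voom on fragments passed). The gene lies on chromosome 20 (chr20:31664452-31723989), where the median log2 fold change of 440 tested genes was 0.39 and 85.9% were above 0, and the 87 other tested genes within 5 Mb of it had a median of 0.33, a window chosen after seeing the data. BCL2L1 thus changed by 0.11 less than the median of its chromosome. It also shares 41.3% of its exon bases with other genes, mostly ABALON on the opposite strand, and the library kit did not mark strand.

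BCL2, the founding member, was far below these, at 2.86 and 2.07 FPKM in TF1-BA and at 3.37 and 3.05 FPKM in TF1-BAR. The resistant libraries were higher by a small margin, with a log2 fold change of 0.34 (95% interval −0.071 to 0.74) that did not pass the test (limma adjusted p = 0.175, 0.0386 to 0.587 over the alternatives). BCL2L10, listed at 0 and 0.196 FPKM in TF1-BA and at 0.433 and 0.566 FPKM in TF1-BAR, was not tested. It rested on 0 and 4 against 9 and 12 fragments.

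The makeup of this group of 6 shifted while its sum did not separate the lines, which was 124.7 and 114.3 FPKM in TF1-BA and 111.3 and 115.04 FPKM in TF1-BAR. MCL1 held 48.4% and 50.4% of the summed FPKM in TF1-BA and 37.0% and 33.5% in TF1-BAR. BCL2L1 held 40.8% and 38.9% in TF1-BA and 49.3% and 52.9% in TF1-BAR, so the order of the pair was turned. BCL2L1 per MCL1 was 0.807 ± 0.0507 (SD, n = 2) in TF1-BA and 1.45 ± 0.173 (n = 2) in TF1-BAR, with no overlap, and with 2 libraries against 2 the exact two-sided permutation test gives p = 0.333, the smallest it can give. The level of 1 gene against another depends on the transcript lengths used, and with the exon lengths of GENCODE 44, an alternative chosen after seeing the data, the ratios were 0.907 and 1.63.

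**Figure D2:**
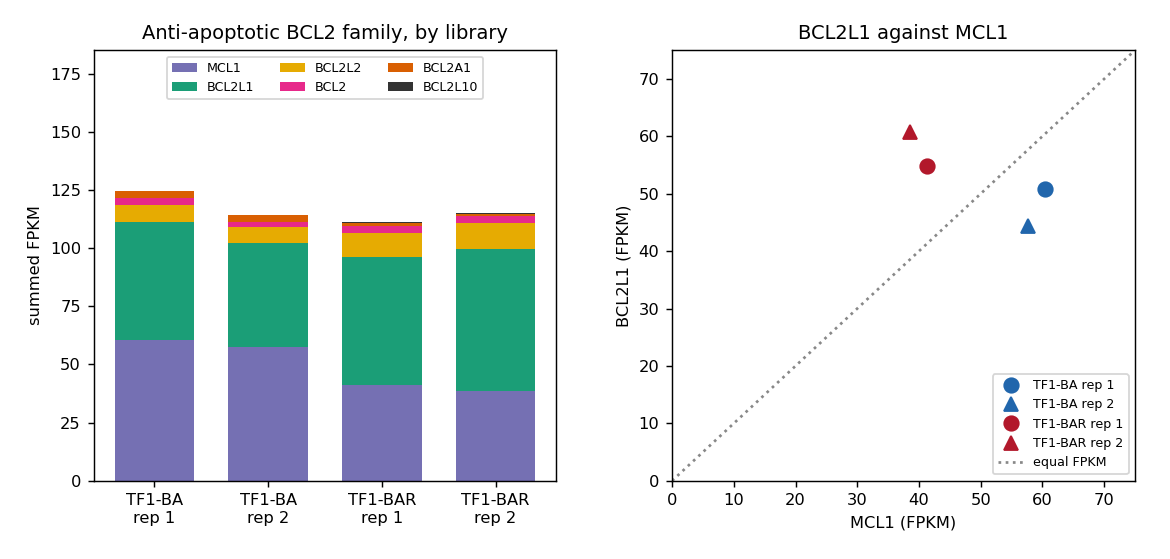
Left, summed FPKM of the 6 anti-apoptotic BCL2 family genes in each library, stacked by gene from 0. Right, BCL2L1 against MCL1 in FPKM, a point per library, with the dotted line at equal levels; the TF1-BA libraries lie below it and the TF1-BAR libraries above it.

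Among the 3 pore-forming genes, 0 had an adjusted p under 0.05 with limma, where 26.9% of all genes did. An unadjusted p under 0.05 was reached by 1, and 1 passed with limma voom on fragments, in both cases BAK1. BAK1 was at 17.5 and 15.9 FPKM in TF1-BA and at 20.5 and 25.2 FPKM in TF1-BAR, all higher in the resistant line, with a log2 fold change of 0.43 (standard error 0.119, limma adjusted p = 0.0545, 0.00841 to 0.243 over the alternatives). BAX was at 9.47 and 9.52 FPKM in TF1-BA and at 8.90 and 8.68 FPKM in TF1-BAR, a log2 fold change of −0.11 (95% interval −0.29 to 0.076, limma adjusted p = 0.310). BAK1 was thus the more abundant of the pair in every library, at 1.85 and 1.67 times BAX in TF1-BA and at 2.30 and 2.90 times BAX in TF1-BAR. BOK, a related protein whose level is set by its turnover, lay at 2.59 to 3.09 FPKM with overlapping lines.

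Of the 8 BH3-only genes, 7 were tested and BMF alone passed, which is 14.3% where 26.9% of all genes passed. Its means were 0.377 FPKM in TF1-BA and 1.12 FPKM in TF1-BAR, so it reached the filter only through TF1-BAR. BMF, which couples loss of attachment and changes of the cytoskeleton to apoptosis, was at 0.315 and 0.439 FPKM in TF1-BA and at 0.920 and 1.32 FPKM in TF1-BAR. Both resistant libraries were higher, on 79 and 116 fragments against 31 and 37, and the means differed 2.97-fold. The log2 fold change was 0.88 (standard error 0.214, limma adjusted p = 0.0404), with adjusted p from 0.00072 to 0.159 over the 14 alternatives in which it was tested, of which 8 passed. Its fold change depended on the pseudocount, since with 0.1 FPKM BMF passed the 2-fold threshold as well. BCL2L11, the BIM gene, was at 10.6 and 10.7 FPKM in TF1-BA and at 10.7 and 10.1 FPKM in TF1-BAR. The lines overlapped, and the log2 fold change of −0.03 had a 95% interval from −0.22 to 0.15 (limma adjusted p = 0.767).

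PMAIP1, which encodes NOXA, the BH3-only partner of MCL1, was the most abundant of the group, at 25.2 and 23.6 FPKM in TF1-BA and 22.8 and 20.2 FPKM in TF1-BAR (log2 fold change −0.18, limma adjusted p = 0.188). MCL1 per PMAIP1 was 2.40 and 2.44 in TF1-BA and 1.81 and 1.91 in TF1-BAR. BID, the link from caspase-8 to mitochondria, had a log2 fold change of 0.27 and BBC3, the p53 target PUMA, of 0.26, with limma adjusted p of 0.147 and 0.248. The lines overlapped for BBC3, whose log2 fold change ranged from 0.079 to 0.45 over the alternatives. BIK, which sits at the endoplasmic reticulum, had 0.17 and BAD, which growth factor signalling silences by phosphorylation, −0.01, both with overlapping lines. HRK was near 0 in both lines, on 9 to 13 fragments a library, and was not tested. BCL2L13, a mitochondrial family member that also acts in mitophagy, was lower in both resistant libraries, at 9.42 and 10.8 against 12.04 and 11.7 FPKM, and did not pass (log2 fold change −0.22, limma adjusted p = 0.133).

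**Figure D3:**
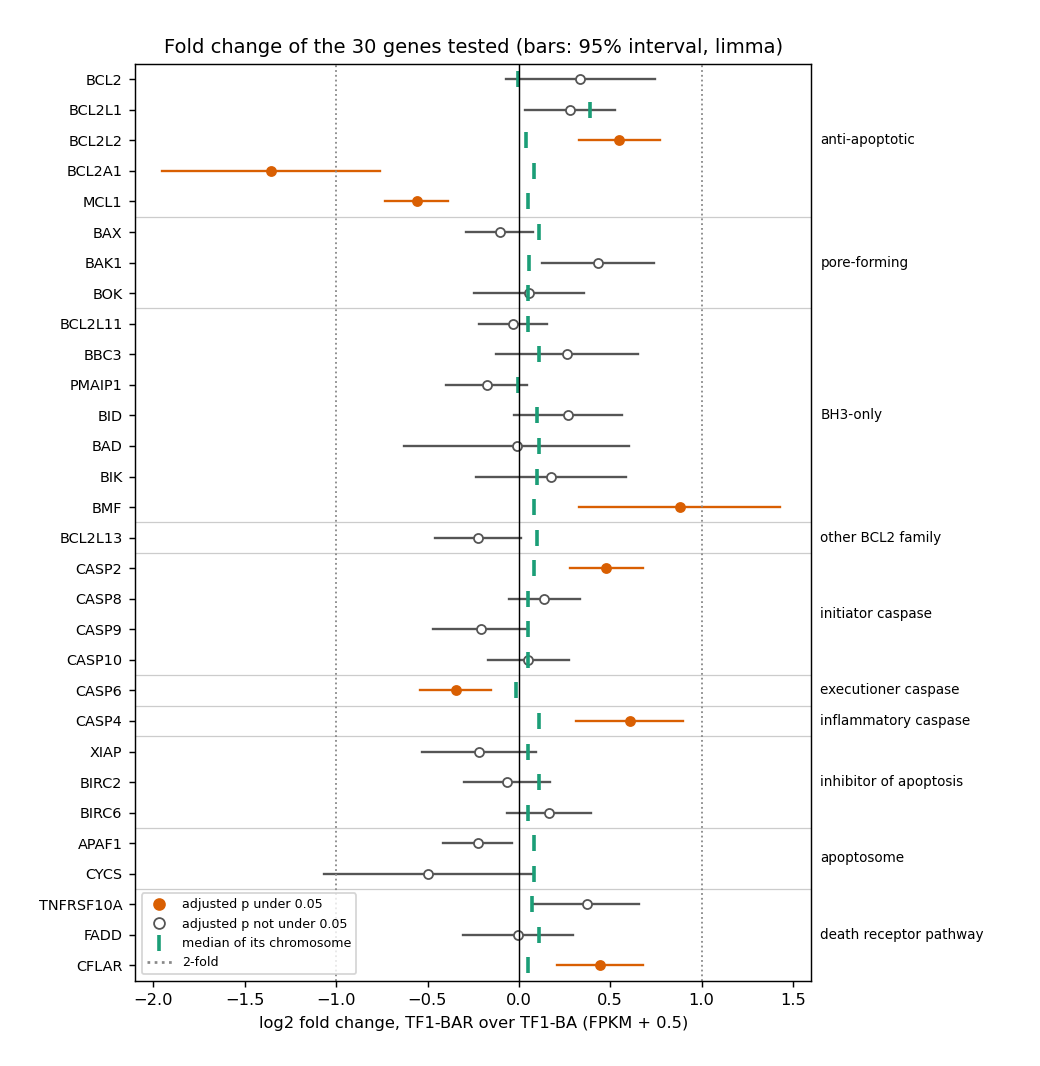
Log2 fold change of FPKM + 0.5, TF1-BAR over TF1-BA, of the 30 genes tested, with 95% intervals from limma and rows grouped by role. Filled orange points are the 8 genes with an adjusted p under 0.05, green ticks the median of all tested genes of the same chromosome, and dotted lines 2-fold changes of FPKM + 0.5; BCL2A1 is the only point beyond a dotted line.

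Of the 7 caspases, 6 were tested and 3 passed, where 26.9% of all genes did, and these were an initiator, the executioner and an inflammatory caspase. CASP2, an initiator that acts in the response to DNA damage and extra centrosomes, was at 7.90 and 7.34 FPKM in TF1-BA and at 10.7 and 10.9 FPKM in TF1-BAR. Both resistant libraries were higher, with a log2 fold change of 0.48 (standard error 0.0768, limma adjusted p = 0.0157) that passed in 12 of 15 alternatives (0.00063 to 0.129). CASP4, which senses bacterial lipopolysaccharide and starts pyroptosis, was at 3.24 and 3.72 FPKM in TF1-BA and at 5.17 and 5.95 FPKM in TF1-BAR. It was higher in both resistant libraries by a log2 fold change of 0.61 (standard error 0.114, limma adjusted p = 0.0225, 0.00053 to 0.141 over the alternatives). CASP6, an executioner that cleaves lamins, went the other way, from 8.13 and 7.89 FPKM to 6.07 and 6.31 FPKM. Its log2 fold change was −0.35 (standard error 0.0756, limma adjusted p = 0.0311, 0.0222 to 0.205 over the alternatives, of which 9 passed).

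The other initiators changed less. CASP8, the caspase of death receptors, was at 8.62 and 8.11 FPKM in TF1-BA and 9.22 and 9.30 FPKM in TF1-BAR (log2 fold change 0.14, limma adjusted p = 0.221). CASP9, the caspase of the apoptosome, was at 6.10 and 5.63 against 4.67 and 5.36 FPKM (−0.21, limma adjusted p = 0.186). CASP10, next to CASP8 on chromosome 2, lay between 5.73 and 6.33 FPKM with overlapping lines. CASP1, the activator of interleukin-1 beta and a neighbour of CASP4 on chromosome 11, was near 0 with 3 to 6 fragments a library and was not tested.

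Of the apoptosome genes CYCS and APAF1, 0 of 2 passed with limma, where 26.9% of all genes did. An unadjusted p under 0.05 was reached by 1 of them, and both passed with limma voom on fragments. CYCS, the gene of cytochrome c, was at 71.5 and 64.5 FPKM in TF1-BA and at 60.3 and 38.0 FPKM in TF1-BAR. The second resistant library stood far below the other 3, so that the log2 fold change of −0.50 carried a 95% interval from −1.07 to 0.070 (limma adjusted p = 0.156, 0.0179 to 0.417 over the alternatives). CYCS has many processed pseudogenes that could take up some of its reads. APAF1, the scaffold of the apoptosome, was at 11.6 and 11.0 FPKM in TF1-BA and at 9.49 and 9.68 FPKM in TF1-BAR (log2 fold change −0.22, standard error 0.0732, limma adjusted p = 0.0809, 0.0431 to 0.383 over the alternatives).

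Of the 4 inhibitors of apoptosis, 3 were tested and 0 passed with limma, where 26.9% of all genes did. Of the 3, 0 had an unadjusted p under 0.05 and 0 passed with limma voom. XIAP, a direct inhibitor of caspases, was at 5.24 and 5.71 FPKM in TF1-BA and 5.13 and 4.17 FPKM in TF1-BAR, a log2 fold change of −0.22 (95% interval −0.53 to 0.092). BIRC2, a ubiquitin ligase of TNF signalling, was the most abundant at 11.9 to 13.7 FPKM with overlapping lines. BIRC6, a very large ubiquitin-conjugating inhibitor, was at 8.50 and 9.45 against 9.71 and 10.5 FPKM, a log2 fold change of 0.16 (95% interval −0.068 to 0.39). BIRC3, beside BIRC2 on chromosome 11, was at 0.387 to 0.616 FPKM and was not tested. DIABLO, the mitochondrial antagonist of these inhibitors also called SMAC, was listed at only 0.219 to 0.271 FPKM. It shares 32.3% of its exon bases with other genes, mostly a protein-coding readthrough gene on the same strand, so its true level is uncertain in this table.

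In the death receptor pathway, CFLAR, the decoy of caspase-8 known as c-FLIP, was at 5.21 and 4.71 FPKM in TF1-BA and at 6.67 and 7.17 FPKM in TF1-BAR. Both resistant libraries were higher, with a log2 fold change of 0.44 (standard error 0.0917, limma adjusted p = 0.0281, 0.00081 to 0.175 over the alternatives, of which 10 passed). CFLAR, CASP10 and CASP8 lie side by side at chr2:201116104-201287711, and CFLAR per CASP8 was 0.605 and 0.580 in TF1-BA and 0.723 and 0.771 in TF1-BAR. The log2 fold changes of the 3 neighbours were 0.44, 0.05 and 0.14. TNFRSF10A, the receptor DR4 of the ligand TRAIL, was at 7.66 and 8.87 against 10.1 and 11.6 FPKM, and the difference of 0.37 on the log2 scale (standard error 0.111) did not pass (limma adjusted p = 0.0659, 0.0178 to 0.302 over the alternatives). Its sister receptor TNFRSF10B, DR5, was listed at 0.258 to 0.364 FPKM and not tested, and since the annotation release behind the table is not known its true level is uncertain here. FADD, the adaptor of these receptors, was at 4.06 and 4.28 against 3.76 and 4.60 FPKM and overlapped, and 59.2% of its exon bases are shared with a transcript of the opposite strand.

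By mean level, CYCS, MCL1 and BCL2L1 led in TF1-BA at 68.0, 59.0 and 47.6 FPKM, and BCL2L1, CYCS and MCL1 led in TF1-BAR at 57.9, 49.2 and 39.9 FPKM. CYCS and MCL1 did not overlap in TF1-BA, where 64.5 FPKM was the lower CYCS value and 60.4 FPKM the higher MCL1 value, and BCL2L1 and MCL1 did not overlap in either line. CYCS in TF1-BAR spanned 38.0 to 60.3 FPKM, which took in every BCL2L1 and MCL1 value of that line but the highest BCL2L1 value. PMAIP1 and BAK1 followed, at 24.4 and 16.7 FPKM in TF1-BA and at 21.5 and 22.8 FPKM in TF1-BAR, where their libraries overlapped. In both lines 20 of the 36 genes had a mean above 5 FPKM.

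A wider set of 100 other apoptosis genes in 7 lists was read from the same fit. Of these, 98 were in the table used here, 88 were tested and 31 passed, 15 higher and 16 lower in TF1-BAR. That is 35.2% against 26.9% of all genes, and 5 of the 88 also passed the 2-fold threshold. The median log2 fold change of the 88 was 0.0032. Without TF1-BA replicate 1 or 2 the number that passed was 1 or 0 with limma, where 28 or 29 had an unadjusted p under 0.05, and without TF1-BAR replicate 2 it was 7. Of the 9 tested genes on chromosome 10, whose 593 tested genes had a median of −0.35, 6 were lower and 1 higher, and the part of the chromosome in their change was not tested.

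Among mitochondrial and BCL2-binding proteins, 10 of 19 tested genes passed, 8 lower and 2 higher, where 10.5% of all genes were lower and 16.3% higher. BAG3, a co-chaperone that stabilises BCL2 family proteins, fell from 18.3 and 19.4 FPKM to 4.87 and 5.82 FPKM, which is −1.73 on the log2 scale (standard error 0.105, limma adjusted p = 0.00337). GHITM, a protein of the inner mitochondrial membrane that helps to hold cytochrome c, fell from 161.5 and 166.4 to 91.1 and 77.4 FPKM (−0.96, limma adjusted p = 0.00623). PPIF, cyclophilin D of the permeability transition pore, fell from 65.7 and 59.2 to 37.06 and 41.2 FPKM (−0.67, limma adjusted p = 0.0107). All of BAG3, GHITM and PPIF lie on chromosome 10, and each was lower than its median of −0.35. VDAC2, which also passed and lies there, had −0.39, near that median. BNIP3, on the same chromosome, had 0.11 and did not pass.

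Of the executioner caspases and substrates, 5 of 12 passed, 3 lower and 2 higher, where 26.9% of all genes passed. The actin-severing protein GSN had a log2 fold change of −0.97 (limma adjusted p = 0.00887), the lamin LMNB1 −0.49 (0.0213) and DFFA, the inhibitor of the DNase that cuts chromatin in apoptosis, 0.35 (0.0224). Of the other death receptor genes, 4 of 14 passed, 3 higher and 1 lower, which at 28.6% is near the 26.9% of all genes. TNFRSF10D, a decoy receptor for TRAIL, rose from 6.28 and 7.15 to 12.7 and 12.6 FPKM (log2 fold change 0.87, limma adjusted p = 0.00686), and TNFRSF1B, the second TNF receptor, rose by 0.69 (0.0134). FAS, the death receptor on chromosome 10, fell from 1.84 and 1.78 to 0.821 and 0.731 FPKM (−0.86, limma adjusted p = 0.0148).

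Of the necroptosis and pyroptosis genes, 7 of 13 passed, 4 higher and 3 lower, where 26.9% of all genes passed. RIPK3 and AIM2 reached the filter only through TF1-BAR, since their means in TF1-BA were 0.296 and 0.460 FPKM. RIPK3, the kinase of necroptosis, rose from 0.255 and 0.338 to 1.01 and 1.20 FPKM (log2 fold change 1.01, limma adjusted p = 0.0223), AIM2, a sensor of cytosolic DNA, rose by 0.94 (0.0212), and the cytokine IL1A fell by 1.03 (0.0110). Of the p53 list, 2 of 14 passed, both higher: PERP, a p53 target of cell membranes, by 1.08 (0.0167) and PPP1R13B, which directs p53 to apoptosis genes, by 0.39 (0.0309). AVEN, which binds BCL-xL and APAF1, was the only one of 4 other inhibitors and partners to pass, at 1.17 (0.0123). Of 12 genes of MCL1 and BIM turnover, 2 passed, or 16.7%. BTRC, a ubiquitin ligase subunit that targets phosphorylated BIM, rose by 0.66 (0.0191), and MARCHF5, a mitochondrial ubiquitin ligase for MCL1, fell by 0.48 (0.0195). Both lie on chromosome 10, and they changed in opposite directions.

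**Figure D4:**
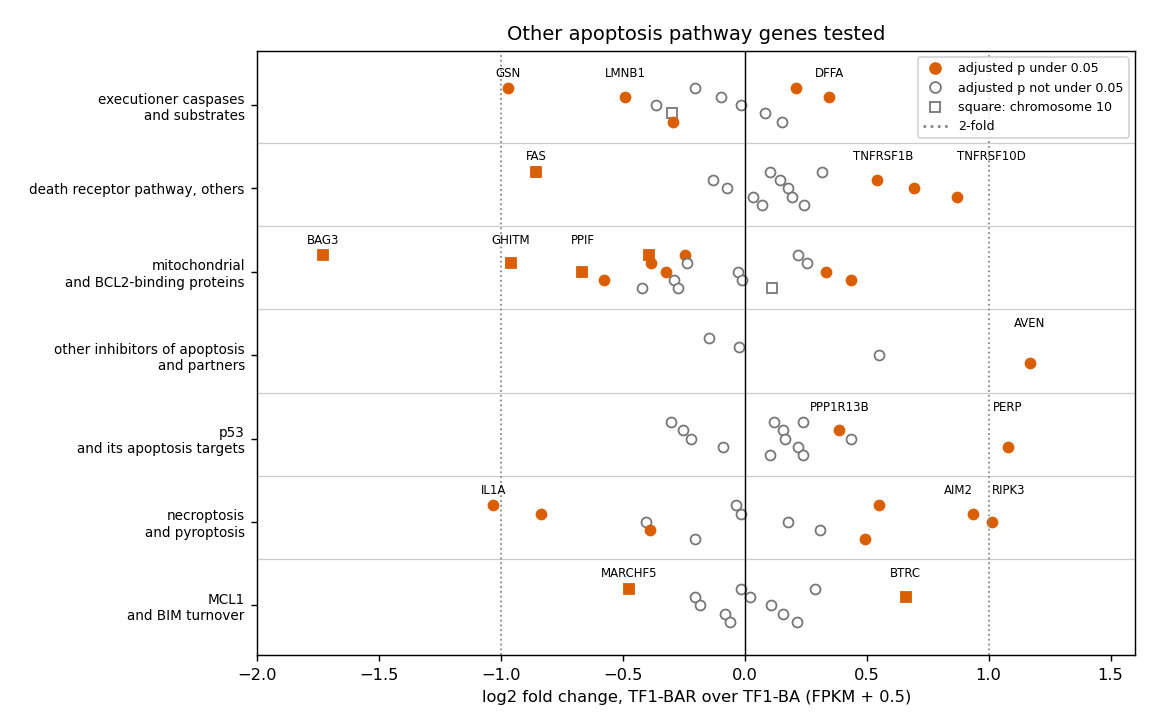
Log2 fold change of FPKM + 0.5, TF1-BAR over TF1-BA, of the 88 tested genes of 7 other apoptosis lists, a point per gene and a row per list. Filled orange points have an adjusted p under 0.05, squares are genes on chromosome 10 and dotted lines mark 2-fold changes; BAG3 lies furthest to the left and AVEN furthest to the right.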

How the data were processed

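Total RNA of TF1-BA and TF1-BAR cells was sequenced in 2 libraries per line with a kit that does not mark strand. Paired-end reads were aligned by the authors to GRCh38 with TopHat2 2.0.13 and passed through Cufflinks and Cuffdiff 2.2.0, and the values they deposited are FPKM per library, without log transformation. Which annotation release they used is not given in the sources used here. A linear model (limma 3.58.1 under R 4.3.3, lmFit and eBayes with trend) was fitted to log2(FPKM + 0.5) of the 15519 genes that averaged 0.5 FPKM or more, with Benjamini-Hochberg adjustment and the paper's thresholds of an adjusted p under 0.05 and a log2 fold change of 1 or more in size. The limma fit was also run on simulated data with a single dispersion for all genes, and the outcome is not reported here. Fragments were recovered as the numbers that are whole, within 0.002, in all libraries at a common gene length. This held for all 30853 genes above 0, of which 14306 were whole at the exon length of GENCODE 44 and 16547 at a fitted length. With wrong library sizes it held for 0 of 300 genes. These were taken from the genes whole at the GENCODE 44 length, so the check does not cover fitted lengths. Fragment numbers cover counting error only.

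The 36 genes, the lists and the tests were chosen with earlier results of these data known. Values per library are given for genes with an adjusted p under 0.05 and for BCL2, BCL2L1, MCL1, BCL2L11, BAX and BAK1, and further genes by values, ranges and counts. From each wider list the 3 genes with the largest log2 fold change that passed are named, with VDAC2 and BNIP3 added for chromosome 10. Some genes of the lists are not reported here. TP53AIP1 and ZBP1 of these lists and the B cell marker MS4A1 were not analysed here. The labels do not say whether equal replicate numbers pair the libraries. The difference between replicates 1 and 2 in TF1-BA correlated with that in TF1-BAR at 0.0646 across 15519 genes, so no block was used. Alternatives were other pseudocounts (1 and 0.1 FPKM), filters, scalings and variance models, a replicate block, limma voom on recovered fragments, and leaving out each library.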

Additional observations from a re-analysis of the deposited data

How the results depend on the processing

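The 8 genes with an adjusted p under 0.05 became 2 (CASP2 and MCL1) with no filter on low values, where more genes are tested, and 14 with limma voom on recovered fragments, which added APAF1, BAK1, BCL2, BCL2L1, CYCS and TNFRSF10A. Leaving out a library gave 0 to 7. The 1 gene past both thresholds became 0 with no filter, 2 with a pseudocount of 0.1 FPKM, with TPM and with limma voom, each adding BMF, and 0 to 1 with a library left out. The 31 genes of the wider lists became 9 with no filter, 43 with limma voom and 0 to 29 with a library left out. Over all genes, the 737 past both thresholds became 487 with a pseudocount of 1 FPKM, 1151 with limma voom and 42 to 783 with a library left out. They split into 474 higher and 263 lower, and with quantile normalization into 359 and 338. The cause was not tested. A fit with a library left out assumes that the lone library of its line varies like the others.

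The replicate block gave 9 genes with an adjusted p under 0.05 (TNFRSF10A added), 1 past both thresholds, 31 of the wider lists and 755 of all genes.

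Genes with log2 fold changes near 0 that changed sign had no adjusted p under 0.05 in any setting. With TPM these were BAD (0.039), BCL2L11 (0.034), BIRC2 (0.00059) and FADD (0.060), with limma voom BAD (0.0017), and with quantile normalization BOK (−0.045) and CASP10 (−0.011). With a library left out, the log2 fold change ranged from −0.20 to 0.18 for BAD, −0.070 to 0.0056 for BCL2L11, −0.016 to 0.36 for BIK, −0.15 to 0.019 for BIRC2, −0.039 to 0.15 for BOK, −0.0098 to 0.11 for CASP10 and −0.13 to 0.12 for FADD. BCL2L1 per MCL1 was 0.907 in TF1-BA and 1.63 in TF1-BAR with GENCODE 44 lengths. Among the 8 genes that passed, BCL2A1 rested on the fewest fragments, 11 to 65 a library, followed by BMF with 31 to 116.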
